A study of Mus musculus with 15 samples.

Results

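The genes described here are 10 genes that receive or limit insulin-like growth factor (IGF) signals: the receptors Igf1r and Igf2r, the receptor substrates Irs1 and Irs2, and the binding proteins Igfbp2, Igfbp3, Igfbp4, Igfbp5, Igfbp6 and Igfbp7. They were taken by symbol from the 3 deposited tables of normalized counts, 10 of 55291 genes, and all 10 were found. They were chosen by their measured differences between the groups of these tables, so those differences are given as description, without a test. The libraries come from HY19636, a mouse pancreatic ductal adenocarcinoma (PDAC) line, which all groups share. The study gives p53 L/+ as the p53 genotype of the mice it came from. According to the study, its mouse PDAC lines were isolated from tumors of a mouse model driven by Ptf1a-Cre. Cells grew in DMEM with serum and were left as controls (CNT), treated with 25 uM of the glutamine (Gln) antagonist DON for 24 h, or kept without Gln for 24 h. Tumors grew from the same line in the pancreas of female B6J mice aged 8 to 10 weeks. The mice were given vehicle (VEH) or, at 3 mg/kg a day, DRP-104, which releases DON in the body. Dosing ran for 5 days with a pause of 2 days, in 2 such cycles, until the tumors were taken on day 21. Each of the 5 groups has 3 libraries, and the sources used do not say whether the 3 culture libraries of a group came from separate cultures.

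IGF1 and IGF2 signal through IGF1R, a tyrosine kinase receptor that phosphorylates the docking proteins IRS1 and IRS2 and so feeds PI3K and AKT. IGF2R, also the cation-independent mannose 6-phosphate receptor, takes up IGF2 for degradation and sorts lysosomal enzymes, and does not signal as a kinase. The secreted IGF binding proteins hold IGFs away from the receptor or carry them to it, and several also act without IGF. IGFBP7 differs from the others in its low affinity for IGFs. Gln is the nitrogen donor for nucleotides, amino sugars and other amino acids, and DON blocks enzymes that use it.

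The reads assigned to genes numbered from 25.2 to 48.2 M per library for cells (9 libraries) and from 16.3 to 20.7 M for tumors (6 libraries). All 10 epithelial markers examined were detected in control cells, with summed values of 339292 to 431265 normalized counts, against 103425 to 110887 in DON cells and 139014 to 152624 in Gln-free cells. Of 10 fibroblast markers, 6 were at 0 in all 3 control libraries, among them Col1a2, Dcn and Lum. Pdgfra was the highest of the list there, at a mean of 445, against 116 in DON cells and 929 in Gln-free cells. The third DRP-104 tumor stood apart from the other tumors, with a median correlation of 0.896 against at least 0.954. Its summed T cell markers reached 2019, against 68 to 132 in the other 5 tumors. A separate table gives FPKM (fragments per kilobase of gene and per M fragments) for 3 vehicle and 3 DRP-104 columns. These were not matched to the tumor libraries, as columns of the same name deviated together by no more than r = 0.266. Pairs of different names within a group reached at most r = 0.441, for the third vehicle tumor and the first vehicle column. Whether those columns come from other mice is not given in the sources used here. There, the first DRP-104 column stood apart, with a median correlation of 0.925 against 0.973 to 0.986 and summed fibroblast markers of 3063 FPKM against 808 to 1383. For the 10 genes, differences that rest on either library are given with and without it.

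The upstream sequences of 5 genes are shown because their transcripts differed from control cells in the same direction in DON and in Gln-free cells, Igfbp4, Igfbp5 and Igfbp7 lower and Igfbp3 and Irs2 higher. Each is the 250 bases before the RefSeq start of transcription on the gene's own strand (GRCm38.p6), at chr1:72874866-72875115 for Igfbp5, chr5:77408046-77408295 for Igfbp7, chr11:7213924-7214173 for Igfbp3 and chr8:11008930-11009179 for Irs2, on the minus strand, and at chr11:99040994-99041243 for Igfbp4, on the plus strand. Capitals mark matches, on either strand, to 6 motifs: TTGCATCA (an amino acid response element), TGACGTCA (a cAMP response element), CACGTG (an E-box), GGGCGG (a GC box), CCAAT and TATAAA.
Igfbp4: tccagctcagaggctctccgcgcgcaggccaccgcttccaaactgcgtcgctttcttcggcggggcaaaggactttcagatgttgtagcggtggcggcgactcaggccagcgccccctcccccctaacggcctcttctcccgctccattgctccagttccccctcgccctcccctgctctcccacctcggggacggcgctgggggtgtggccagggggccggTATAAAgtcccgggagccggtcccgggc
Igfbp5: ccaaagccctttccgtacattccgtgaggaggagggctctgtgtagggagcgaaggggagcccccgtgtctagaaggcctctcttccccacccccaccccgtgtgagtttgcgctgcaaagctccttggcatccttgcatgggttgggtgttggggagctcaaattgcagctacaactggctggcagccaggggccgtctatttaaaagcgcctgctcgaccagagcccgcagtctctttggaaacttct
Igfbp7: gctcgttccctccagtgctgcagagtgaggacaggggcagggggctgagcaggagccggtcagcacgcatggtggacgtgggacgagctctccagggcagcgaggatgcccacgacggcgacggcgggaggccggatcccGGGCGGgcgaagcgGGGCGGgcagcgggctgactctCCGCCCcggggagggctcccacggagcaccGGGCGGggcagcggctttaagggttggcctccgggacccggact
Igfbp3: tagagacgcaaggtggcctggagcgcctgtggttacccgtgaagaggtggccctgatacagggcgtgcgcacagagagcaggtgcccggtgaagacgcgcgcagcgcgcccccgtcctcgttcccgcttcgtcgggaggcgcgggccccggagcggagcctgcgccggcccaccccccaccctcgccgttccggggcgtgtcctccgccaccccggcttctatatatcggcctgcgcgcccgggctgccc
Irs2: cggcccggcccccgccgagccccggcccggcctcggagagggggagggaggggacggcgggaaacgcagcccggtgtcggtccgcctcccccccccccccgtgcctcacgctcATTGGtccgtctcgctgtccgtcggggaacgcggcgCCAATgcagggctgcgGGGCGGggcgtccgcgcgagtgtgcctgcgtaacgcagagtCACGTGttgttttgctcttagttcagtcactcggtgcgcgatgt
Neither TTGCATCA nor TGACGTCA stood in the window of any of the 10 genes, and 0.791% and 1.55% of 32851 mouse windows of this length hold them. CACGTG was found in 4 genes (Igf2r, Igfbp2, Irs1 and Irs2), against 6.02% of all windows. GGGCGG was found in 6 genes (Igf1r, Igf2r, Igfbp2, Igfbp7, Irs1 and Irs2), against 32.7%. The windows of the 10 genes held from 49.6% (Igfbp6) to 77.6% (Igf1r) G and C, and all but that of Igfbp6 exceeded the median of 52.4% over all windows. Shares among windows of like G and C content were not computed. Igfbp2 was counted if either of its windows held a match, whereas the shares are per window. CCAAT stood before Irs2 and Igfbp6 (33.8% of all windows), and TATAAA before Igfbp4 and Igfbp6 (12.4%). None of the 6 motifs occurred before Igfbp3 or Igfbp5. Among the genes that were lower in treated cells, Igfbp4 and Igfbp7 each had a match, to different motifs, and among those that were higher only Irs2 had one. The start used for Igfbp4, Igfbp7 and Igfbp3 is that of the gene in the FPKM table, whereas that of Igfbp5 lies 19 bases and that of Irs2 471 bases from it.

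In control cells 3 of the 6 binding proteins were the most abundant of the 10 transcripts and the other 3 the least. Levels of different genes were compared as normalized counts per kilobase of gene length, on a scale set jointly for the 15 libraries. The gene lengths were those given with the FPKM values. Igfbp7 came first at 8298 ± 552 (SD, n = 3), followed by Igfbp4 at 5508 ± 644 and Igfbp3 at 1229 ± 116. The receptors and substrates were lower, with Igf2r at 438 ± 23.1, Igf1r at 324 ± 28, Irs2 at 271 ± 47.9 and Irs1 at 88.6 ± 12.8. Igfbp5 stood at 31.1 ± 4.51 and Igfbp6 at 7.16 ± 0.314, and Igfbp2 had no read in any control library. Only Igf1r and Irs2 overlapped among neighbors in this order. The order of receptors and substrates differed between this scale and the FPKM columns. In vehicle tumors it was Igf1r (453), Igf2r (327), Irs2 (207) and Irs1 (132) on this scale. In the vehicle FPKM columns it was Igf2r (18.7), Igf1r (8.23), Irs1 (6.09) and Irs2 (4.88).

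**Figure D1:**
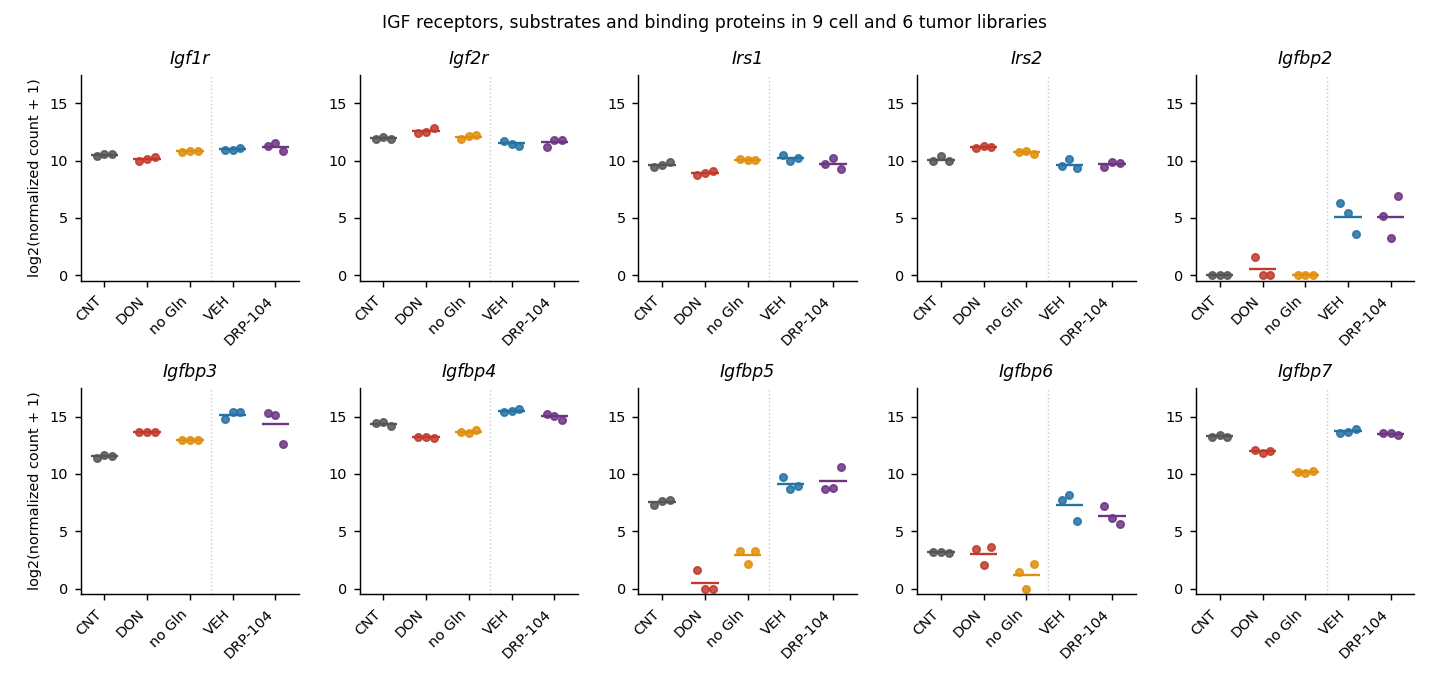
Level of each of the 10 genes as log2(normalized count + 1) on a joint scale, with 1 point per library and a line at the mean of each group of 3. Igfbp5 is near 0 in DON cells and high in tumors, Igfbp2 is seen mainly in tumors, and the third DRP-104 tumor is low for Igfbp3 and high for Igfbp5.

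The filter on low values (a mean of at least 10 normalized counts) was passed by 8 of the 10 genes in each culture table, and not by Igfbp2 and Igfbp6. After DON, all 8 had values that did not overlap between groups, 3 higher and 5 lower. Of 13556 genes in that comparison 71.9% did not overlap, and the genes were chosen by it, so nothing is read from the count. Without Gln, 7 of the 8 did not overlap, 4 higher and 3 lower, beside 73.6% of 13390 genes. In 5 genes (Irs2, Igfbp3, Igfbp4, Igfbp5 and Igfbp7) the direction was the same in both without overlap, as it was for 47.7% of 13150 genes. The median size of the difference was 1.14 on the log2 scale over the 8 genes against 0.62 over all genes after DON, and 0.67 against 0.64 without Gln. Both comparisons use the same 3 control libraries, scaled separately in each table.

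Igf1r, the signaling receptor (chr7:67952859-68226780 on GRCm38), was lower in DON cells and higher in Gln-free cells. Its normalized counts were 1612, 1922 and 1791 in controls and 1190.1, 1373 and 1509 after DON. The difference was -0.39 on the log2 scale (SE 0.112), and the highest DON library lay below the lowest control. In the Gln-free table the controls were 1519, 1815 and 1727 and the Gln-free cells 2061, 2186 and 2073, which is 0.32 higher (SE 0.0933). Every Gln-free library exceeded every control.

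Irs1, which couples the receptor to PI3K (chr1:82233101-82291416), had the same pattern as Igf1r. Control cells had 854, 992 and 1118 normalized counts and DON cells 520.5, 587 and 642, a difference of -0.76 (SE 0.129). Against controls at 805, 937 and 1079 on the other table's scale, Gln-free cells had 1289, 1254 and 1225 and were 0.43 higher (SE 0.114). Neither comparison showed overlap. On a common scale of the 9 culture libraries, DON cells minus Gln-free cells gave -1.15 for Irs1 (SE 0.114) and -0.68 for Igf1r (SE 0.0988). All 8 genes were without overlap in this comparison, as were 71.7% of all genes. Opposite directions without overlap in both comparisons were found for 9.25% of 13150 genes.

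Irs2, the other main substrate (chr8:10986980-11008458), was higher after either treatment. Controls had 1207, 1616 and 1168 normalized counts and DON cells 2577, 2959 and 2848, a 2.12-fold higher mean on the log2(value + 1) scale (log2 difference 1.08, SE 0.122). Gln-free cells had 2014, 2162 and 1796 against controls of 1138, 1526 and 1127, a difference of 0.67 (SE 0.124). All treated libraries lay above all controls. In the same cells the per-kilobase order of the substrates and receptors changed, and Irs2 at 579.6 ± 39.3 stood above Igf1r at 252 ± 28.6 after DON without overlap. Such an order between genes holds for this scale only, as the FPKM columns gave another order with vehicle.

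Igf2r, the scavenging receptor (chr17:12682406-12769664), was higher after DON, with 6585, 6959 and 8891 normalized counts against 4609, 5088 and 4558 (0.64, SE 0.111). Without Gln the values were 4517, 5138 and 5648 against 4344, 4806 and 4396, and the groups overlapped (0.17, SE 0.0948, 95% interval -0.03 to 0.38). Airn, a transcript on the opposite strand that overlaps Igf2r, averaged 64.1 normalized counts in controls, 126 in DON cells and 59.1 in Gln-free cells. The use of strand in counting is not given in the sources used here, so reads of such pairs cannot be told apart. The same holds for Igfbp7 and Polr2b, whose level averaged 4169.6 in controls, 3482 after DON and 3579.7 without Gln.

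Igfbp3 was the binding protein that was higher in treated cells. IGFBP3 (chr11:7206086-7213923) is the main IGF carrier in serum and is also known to restrain growth. Control cells had 3278, 3978 and 3634 normalized counts and DON cells 15663, 15462 and 15902, a 4.33-fold higher level (log2 difference 2.11, SE 0.091). Gln-free cells had 9320.4, 9116 and 9296 against controls of 3089.7, 3757 and 3505, 2.69-fold higher (1.43, SE 0.0875). The values within each treated group lay close together and far above the controls. DON cells exceeded Gln-free cells by 0.72 (SE 0.0771) on the common scale, again without overlap.

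Igfbp4, an inhibitory binding protein that is cleaved by the protease PAPP-A (chr11:99041244-99054392), was lower in both. DON cells had 11308, 11277 and 11008 normalized counts against 26353, 28763 and 22209 in controls, 2.29-fold lower (-1.19, SE 0.102). Gln-free cells had 15410.3, 14357 and 16340.4 against 24836, 27168 and 21419, 1.59-fold lower (-0.67, SE 0.0989). The treated and control libraries were separate in each case.

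Igfbp7 had the widest gap between the treatments among the abundant binding proteins. IGFBP7 (chr5:77349240-77408045) is a secreted protein of the matrix and of vessels. After DON the normalized counts were 5065, 4455 and 4961 against 11951, 13352 and 11567 in controls, 2.54-fold lower (-1.35, SE 0.0919). Without Gln they were 1296, 1278 and 1399 against 11263, 12612 and 11155, 8.8-fold lower (-3.14, SE 0.0849). On the common scale DON cells were 3.54-fold above Gln-free cells (1.82, SE 0.0807), the reverse of the order seen for Igfbp5.

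Igfbp5, a binding protein that adheres to matrix (chr1:72857932-72874884), was nearly absent from DON cells. Control libraries held 152, 194 and 384 reads, DON libraries 2, 0 and 0, and Gln-free libraries 10, 4 and 10. Scaled for depth, controls exceeded DON cells 360.4-fold (95% counting interval 99.4 to 2982) and Gln-free cells 27.4-fold (18.3 to 43.1). These intervals treat each read as independent and leave out the spread between libraries. In the culture libraries 69.6% to 72.7% of genes with 1 to 20 reads had an even number, so that 2 reads may be 1 fragment. The intervals are then too narrow for counting error as well. The fitted differences, -7.24 (SE 0.52) and -4.64 (SE 0.347), depend on the pseudocount of 1.

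Igfbp6 and Igfbp2, the binding proteins under the filter in cells, were near the limit of detection. Igfbp6 prefers IGF2 (chr15:102144362-102149511) and had 8, 8 and 14 reads in controls, 10, 4 and 16 in DON cells and 2, 0 and 4 in Gln-free cells. The ratio of controls to DON cells was 0.987 (95% counting interval 0.575 to 1.7) and that of controls to Gln-free cells 4.51 (1.85 to 13.3). These intervals also treat each read as independent and may be too narrow. Igfbp2 (chr1:72824503-72852474) had no read in control or Gln-free cells and 2 reads in 1 DON library, too few for a ratio.

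The mix of binding proteins differed between the culture groups. Of the summed Igfbp level per kilobase, Igfbp7 made up 55.1% ± 1.19 (SD, n = 3) in control cells, Igfbp4 36.5% ± 1.9 and Igfbp3 8.16% ± 0.711. Igfbp3 led after DON with 48.4% ± 0.791, ahead of Igfbp7 with 29.7% ± 1.29 and Igfbp4 with 21.8% ± 0.721. In Gln-free cells Igfbp4 (44.9% ± 1.15) and Igfbp3 (42.8% ± 1.27) were close together, and Igfbp7 held 12.2% ± 0.26. The summed level was 15073 ± 1209 in controls, 11173 ± 278 after DON and 7675 ± 308 without Gln, with no overlap between the 3 groups.

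**Figure D2:**
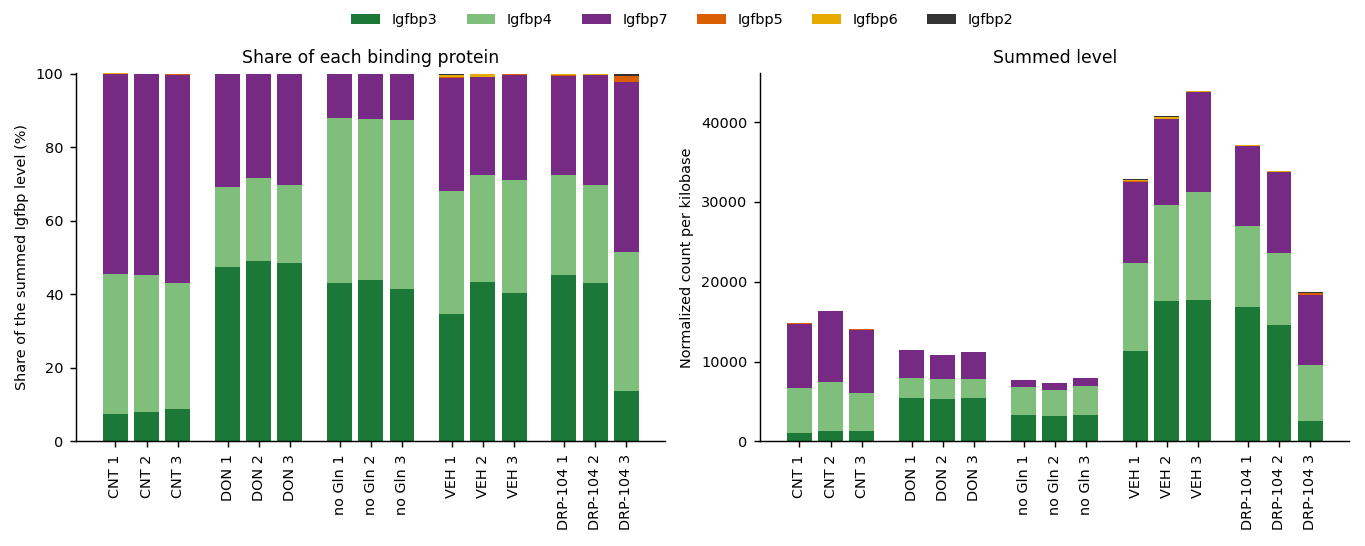
Share of each binding protein in the summed Igfbp level (left, in %) and the summed level itself (right, normalized counts per kilobase, joint scale), with 1 bar per library. Igfbp7 is the widest band in control cells, Igfbp3 in DON cells, and Igfbp3 shrinks in the third DRP-104 tumor.

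**Figure D3:**
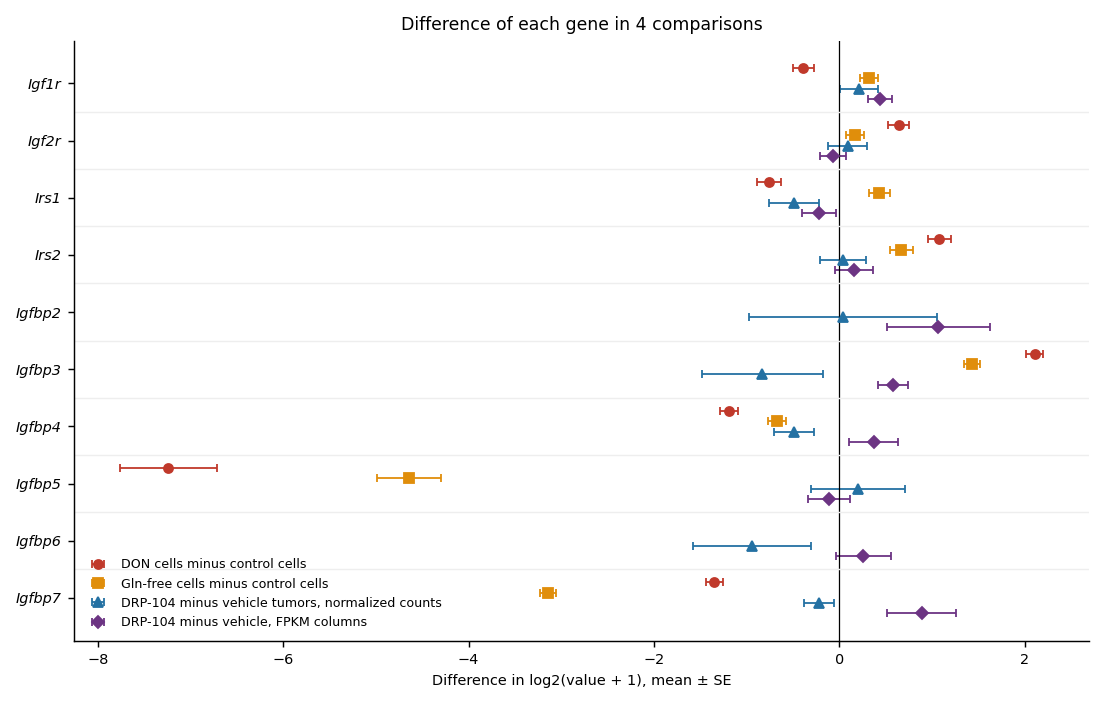
Difference between treated and control libraries for each gene on the log2(value + 1) scale, with bars of 1 SE (n = 3 per group). The 2 culture comparisons share their controls and the FPKM columns were not matched to the tumor libraries, and Igfbp2 and Igfbp6 are not drawn for cells because they were under the filter. Igfbp5 and Igfbp7 lie far below 0 in cells and near 0 in the tumor counts.

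By the rule for likeness, Igfbp5 was the gene followed, since its differences summed to 11.88 over both culture comparisons. Across the 9 culture libraries, the genes whose levels were most like it were Gm44950 (Pearson r 0.9931), Ptprr (0.9919), Eif2ak4 (0.9902), Serpinb1a (0.9899) and Arhgef16 (0.9888). Eif2ak4 encodes GCN2, the kinase that senses uncharged tRNA, and averaged 1204 normalized counts in controls, 425 in DON cells and 558 in Gln-free cells. Of 10431 genes compared, 449 had an r above 0.95. The 9 points fall into 3 groups, so r describes the group means more than separate libraries.

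The tumors contained far more binding protein transcript than the cells in culture. All 6 Igfbp genes were higher in vehicle tumors than in control cells with no overlap, on the joint scale and with TMM scaling alike. Among 15102 genes, 65% did not overlap between these groups and 36.8% were higher without overlap, and the median difference of all genes was 0.14 on the log2 scale. The genes were chosen with differences between these groups known. Igfbp2 and Igfbp6 passed the filter on low values only through the tumors, so nothing is read from the count. Igfbp3 was at 2674, 3228 and 3020.4 in control cells and at 27516, 42730.1 and 42896 in vehicle tumors (3.64, SE 0.462). Igfbp4 was at 21497, 23342 and 18459 in cells and 42051, 45653 and 51884 in tumors (1.14, SE 0.136). For Igfbp7 the gap was small, with 9748, 10836 and 9613 against 12282, 13107 and 15159 (0.42, SE 0.102).

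The binding proteins that were scarce in culture were plainly present in tumors. Igfbp6 was at 8.21, 8.11 and 7.56 in control cells and 206, 283 and 60 in vehicle tumors (4.10, SE 0.669). Igfbp2, absent from the reads of control cells, was at 75.6, 41.3 and 11 in vehicle tumors, at least 16.5-fold higher on average when each control library is set to a floor of 3 reads. Igfbp5 was at 843, 421 and 503 in vehicle tumors against 156, 197 and 207 in control cells (1.60, SE 0.537). Among the receptors and substrates, Igf1r (0.48, SE 0.149) and Irs1 (0.57, SE 0.203) were higher in tumors, Igf2r was lower (-0.43, SE 0.166), and Irs2 overlapped (-0.42, SE 0.187).

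Several lists of host cell markers were higher in this comparison, but not all. Summed over 10 fibroblast markers the level was 397 to 524 in control cells and 54446 to 110339 in vehicle tumors, and over 10 endothelial markers 203 to 234 and 4008 to 4651. The 5 pericyte markers summed to 22.3 to 34.9 in cells and 2279 to 2648 in tumors, and the 10 macrophage markers to 3264 to 3757 and 9194 to 12399. All markers of these 4 lists were detected in tumors, at a mean of at least 10. In control cells 3 of the 10 macrophage markers reached that mean, with Mrc1 highest at 1892, against 2296 in vehicle tumors. So did 2 of the 10 fibroblast markers, with Pdgfra highest at 445. Of the endothelial markers 4 of 10 reached it, and of the pericyte markers 1 of 5. The 10 T cell markers overlapped, at 72.3 to 94.4 in cells and 74.4 to 132 in tumors. Summed epithelial markers were lower in vehicle tumors, at 165121 to 217615. The part of host cells in the Igfbp levels was not tested, and in whole tumors a different number of cells and a different amount of RNA per cell cannot be told apart. Tissue, time of growth, host cells and the share of even read numbers all differ between the 2 kinds of sample.

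In the tumor counts, DRP-104 and vehicle tumors were close for most of the 10 genes. All 10 passed the filter. Over all genes limma called 0% of 15454 at an adjusted p under 0.05, with 775 at an unadjusted p under 0.05 and 371 without the second vehicle tumor. DESeq2 called 56 of 15340 genes (0.365%) and edgeR called 0. Only Igfbp4 had values that did not overlap, against 10.6% of all genes and 5.75% that were lower without overlap. It was at 32828, 35876 and 40807 in vehicle tumors and at 30424, 27456 and 20739 in DRP-104 tumors, a difference of -0.49 (SE 0.216) with all tumors and -0.33 without the third DRP-104 tumor. The summed fibroblast markers were likewise lower without overlap, at 26828 to 46312 in DRP-104 tumors against 54446 to 110339. So were the summed endothelial markers, at 2695 to 3763 against 4008 to 4651, while the other lists of markers overlapped. The part of these cells in the Igfbp4 level was not tested.

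The third DRP-104 tumor set the values of 3 binding proteins. For Igfbp3 it had 4815 normalized counts, against 31918 and 28212 in the other DRP-104 tumors and 21481, 33579 and 33738 in vehicle tumors. The difference was -0.83 (SE 0.655) with it and 0.05 without it. Igfbp5 had 312 and 346 in the other DRP-104 tumors, 1197 in the third and 658, 331 and 396 in vehicle tumors, so that the difference was 0.20 (SE 0.505) with it and -0.43 without it. Igfbp2 likewise went from 0.04 (SE 1.01) to -0.86, with 94.1 in that tumor, 26.7 and 6.92 in the other DRP-104 tumors and 59, 32.5 and 8.66 with vehicle.

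The remaining genes overlapped between the tumor groups. Igf1r was at 1511, 1505 and 1770.2 with vehicle and at 1959, 2306 and 1369 with DRP-104 (0.21, SE 0.203; 0.42 without the third DRP-104 tumor), and without that tumor both DRP-104 values exceeded all vehicle values. Irs1 was at 1118, 795 and 918 with vehicle and at 665, 969 and 459.8 with DRP-104 (-0.49, SE 0.273; -0.22 without the third). Igfbp6 spread from 47.2 to 223 with vehicle and from 36.3 to 114 with DRP-104 (-0.94, or -0.56 without the third). Igfbp7, which was lower in both kinds of treated cells, was at 9588, 10300.0 and 11922 with vehicle and at 9478, 9740.3 and 8086 with DRP-104 (-0.22, SE 0.159; -0.14 without the third). Igf2r (0.09, SE 0.208) and Irs2 (0.04, SE 0.244) were near 0, as they were without that tumor (-0.00 and -0.01).

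Set side by side, the differences in tumors and in cells were farthest apart for Igfbp5. The tumor effect minus the DON effect was 7.44 for Igfbp5 (SE 0.766), which was near 0 in DON cells and between 312 and 1197 normalized counts in DRP-104 tumors. For Igfbp3 it was -2.94 (SE 0.714), or -2.06 without the third DRP-104 tumor. It was 1.13 for Igfbp7 (SE 0.171), 0.70 for Igfbp4 (SE 0.223) and 0.60 for Igf1r (SE 0.24), and -1.04 for Irs2 (SE 0.287) and -0.55 for Igf2r (SE 0.249). Irs1 (0.27, SE 0.32), Igfbp2 (-0.55, SE 1.31) and Igfbp6 (-0.78, SE 0.872) had intervals that included 0. Without the third DRP-104 tumor the values were 6.81 for Igfbp5, 1.21 for Igfbp7, 0.86 for Igfbp4, 0.81 for Igf1r, -1.09 for Irs2, -0.64 for Igf2r, 0.54 for Irs1, -1.45 for Igfbp2 and -0.40 for Igfbp6. DON in culture and DRP-104 in mice differ in dose, time and cell mixture, so these are values side by side.

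The FPKM columns of vehicle and DRP-104 libraries were not used to choose the 10 genes. All 10 passed the filter (a mean FPKM of at least 0.5). Limma called none of the 10, and 0% of 14183 genes. At an unadjusted p under 0.05 there were 3 of the 10, Igf1r, Igfbp3 and Igfbp7, against 1079 genes (7.61%) in all. That number was 1712 without the first DRP-104 column and 623 without the second vehicle column. The same 3 were higher with DRP-104 in every column, beside 19.3% of genes that did not overlap and 9.6% that were higher without overlap. With 3 columns against 3, an exact permutation test cannot go below 0.1.

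Igf1r was at 8.3, 7.64 and 8.76 FPKM with vehicle and 12.8, 10.9 and 11 with DRP-104. The difference was 0.44 on the log2(FPKM + 1) scale (SE 0.128, limma adjusted p = 0.574, two-sided exact permutation p = 0.1), with DRP-104 higher in 3 of 3 columns. Over the alternative settings its adjusted p ran from 0.307 to 0.859. Igfbp3 was at 449.9, 319.6 and 457 with vehicle and 642, 595 and 574 with DRP-104 (0.58, SE 0.164, limma adjusted p = 0.543, exact p = 0.1, range 0.358 to 0.949). Both were much the same without the first DRP-104 column, at 0.37 and 0.53.

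Igfbp7 was at 415, 332 and 357 FPKM with vehicle and 1307, 516 and 468 with DRP-104, the first column far above the rest. Its difference was 0.89 (SE 0.37, limma adjusted p = 0.629, exact permutation p = 0.1, adjusted p 0.322 to 0.96 over the alternatives) and 0.42 without that column. Igfbp4, lower with DRP-104 in the tumor counts, was at 447, 342 and 349 with vehicle and 721, 454 and 351 with DRP-104 here (0.37, SE 0.262, limma adjusted p = 0.636, exact p = 0.2), and at 0.08 without the first column. Summed fibroblast markers were 808 to 1306 FPKM with vehicle and 1103 to 3063 with DRP-104, the highest in the first DRP-104 column, and their part in these values was not tested.

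The other 6 genes overlapped between the FPKM groups. Igfbp2 was at 1.93, 3.94 and 2.62 with vehicle and 19.3, 3.17 and 4.75 with DRP-104 (1.07, SE 0.552, limma adjusted p = 0.629, exact permutation p = 0.2), and its highest value was again the first DRP-104 column, without which the difference was 0.39. For Irs1, Irs2, Igf2r, Igfbp5 and Igfbp6 the differences lay between -0.22 and 0.26, with limma adjusted p-values from 0.658 to 0.836. Without the first DRP-104 column they lay between -0.13 and -0.02, and those of Irs2 (0.16 to -0.05) and Igfbp6 (0.26 to -0.07) turned in sign. In vehicle columns the mix of binding proteins was 34.7% Igfbp3, 32.3% Igfbp4 and 31.4% Igfbp7, against 39.4%, 31.2% and 28.6% in the vehicle tumor counts.

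**Figure D4:**
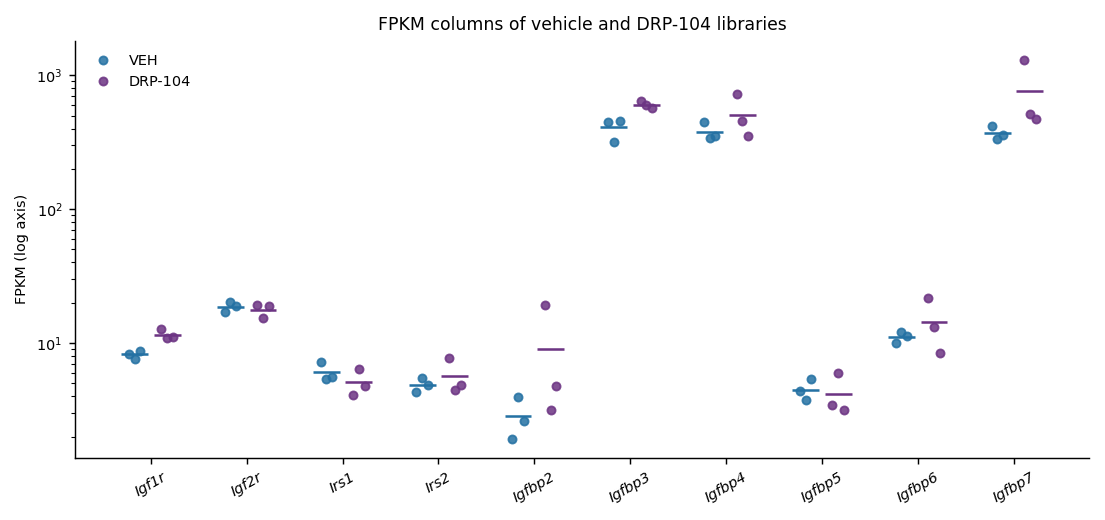
FPKM of the 10 genes (log axis) in 3 vehicle and 3 DRP-104 columns, with 1 point per column and a line at the mean. DRP-104 points lie above all vehicle points for Igf1r, Igfbp3 and Igfbp7, and the first DRP-104 column is the highest point of Igf1r, Irs2, Igfbp2, Igfbp3, Igfbp4, Igfbp6 and Igfbp7.

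Ligands were scarce in culture. Igf1 had at most 8 reads in any culture library and 87 to 499 in tumors, where it averaged 352 ± 151 normalized counts with vehicle and 168 ± 62.6 with DRP-104 (log2 difference -1.02, SE 0.429, limma adjusted p = 0.916). In the FPKM columns Igf1 was at 2.89 to 5.93 with vehicle and 3.45 to 5.32 with DRP-104. Igf2 is listed at 0 in all culture libraries and at no more than 1 read in tumors, but 16048 bases of it, nearly its whole length, lie within Gm49394 on the same strand, and how reads shared by both were counted is not given in the sources used here, so its 0 is not read as absence. In the FPKM table Igf2 averaged 0.251 with vehicle and 0.367 with DRP-104. Ins1 and Ins2, insulin genes of islet cells, had no read in culture.

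Insulin transcripts did not overlap between the FPKM groups and were higher with DRP-104, overlapped in the tumor counts, and were not called in either. Ins1 was at 42.4, 2.51 and 6.93 FPKM with vehicle and at 71.1, 245 and 190.3 with DRP-104 (3.82, SE 0.891, limma adjusted p = 0.416). Ins2 was at 149, 8.38 and 25.9 and at 217, 758 and 683 (3.85, SE 0.966, limma adjusted p = 0.458). In the tumor counts Ins1 was at 8.04, 8.35 and 112 normalized counts with vehicle and at 196, 38.1 and 57.8 with DRP-104 (1.86, SE 1.05, limma adjusted p = 0.916). Ins2 was at 20.6, 23.2 and 142 and at 280.2, 35.8 and 89.2 (1.22, SE 0.912, limma adjusted p = 0.92). The third vehicle tumor thus lay above 2 of the 3 DRP-104 tumors for both genes. In the FPKM columns the 10 islet markers, which include both genes, summed to 14.5 to 234 FPKM with vehicle and 325 to 1213 with DRP-104. Insr, the insulin receptor, was at 1402 ± 134 normalized counts in controls and 1662 ± 241 after DON (0.24, SE 0.12, limma adjusted p = 0.0906) and rose by 0.30 without Gln (SE 0.107, adjusted p = 0.0231). Igfbp1, an acute binding protein of liver, had at most 2.52 normalized counts in any culture library.

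Of 57 other genes of the insulin and IGF pathway, 44 were tested in cells. After DON 12 rose, 18 fell and 14 did not pass the test, and the median difference was -0.17. Without Gln 18 rose, 16 fell and 10 did not pass, with a median of 0.11. The numbers called, 30 and 34 of 44, stand beside 68.1% of 13556 genes called by limma at an adjusted p under 0.05 after DON (33.3% higher and 34.7% lower) and 69.4% of 13390 without Gln (34.5% higher and 34.9% lower). The list was chosen with earlier results of these data known and is not independent evidence.

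Among adapters that bind the receptor or its substrates, the inhibitory adapters Grb10 and Grb14 went opposite ways. Grb10 rose from 794 ± 65.9 to 2006 ± 124 normalized counts after DON (1.34, SE 0.104, limma adjusted p = 6e-08) and by 1.39 without Gln (SE 0.0959). Grb14 fell from 516 ± 27.2 to 71.2 ± 3.41 after DON (-2.84, SE 0.161) and to 84.3 ± 15.8 without Gln (-2.54, SE 0.172). Shc1, which links receptors to Ras, fell from 15023 ± 1196 to 6441 ± 382 after DON (-1.22, SE 0.092) and to 7722 ± 83.9 without Gln (-0.88, SE 0.0805). Gab1, a docking protein, rose in both (1.07 and 0.75), and Dok4 fell in both (-1.11 and -0.67). Dok1, like Dok4 a docking protein, fell from 1095 ± 149 to 519.9 ± 19 after DON and to 517 ± 37 without Gln.

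Of the SOCS inhibitors of cytokine and growth factor receptors, all 3 listed fell after DON, where 34.7% of all genes fell, and 1 fell without Gln, where 34.9% fell. Socs3 had 2150.4, 2352 and 2090.1 normalized counts in controls and 882, 767 and 826 after DON (-1.41, SE 0.101, limma adjusted p = 2.41e-08), against 2126, 2046 and 2112 without Gln (0.01, SE 0.0847, adjusted p = 0.954). Socs1 fell after DON (-1.77, SE 0.203) and did not pass the test without Gln (0.25, SE 0.171). Socs2 fell in both (-1.06 and -0.37). DON minus Gln-free cells gave -1.39 for Socs3 (SE 0.0844, limma adjusted p = 2.48e-09), -1.99 for Socs1 (SE 0.184, adjusted p = 1.93e-07) and -0.65 for Socs2 (SE 0.131, adjusted p = 0.000483). In that comparison 63.3% of 13514 genes were called.

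Genes that act on the binding proteins outside the cell also changed. Htra1, a protease that cleaves IGFBPs, rose from 1432 ± 176 to 2997 ± 207 after DON (1.07, SE 0.106, limma adjusted p = 7.26e-07) and by 0.85 without Gln. Stc1, a relative of Stc2 in the stanniocalcins that inhibit PAPP-A, fell from 318 ± 54.7 to 24.1 ± 17.3 after DON (-4.07, SE 0.529) and to 54.2 ± 12 without Gln (-2.47, SE 0.216). Stc2 rose from 862 ± 82.7 to 1064 ± 68.9 after DON (0.31, SE 0.111, limma adjusted p = 0.0245) and by 0.34 without Gln (SE 0.113, adjusted p = 0.0176). Pappa itself, the PAPP-A gene, was under the filter in cells.

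Downstream, genes of PI3K and of AKT targets were mixed. Phlpp1, a phosphatase that acts on AKT, fell after DON (-1.47, SE 0.0967) from 2351 ± 139.9 to 845 ± 37.9 and did not pass the test without Gln (-0.17, limma adjusted p = 0.1). Pik3r2, a regulatory subunit of PI3K, fell without Gln from 6706 ± 890.2 to 2453 ± 359.5 (-1.45, SE 0.119) and also fell after DON (-0.25, SE 0.106, limma adjusted p = 0.0468). Pik3r3, another such subunit, rose without Gln from 74.5 ± 28 to 175 ± 6.52 (1.29, SE 0.253) and did not pass the test after DON (-0.27, SE 0.297). Foxo4, a transcription factor held in check by AKT, rose by 0.37 after DON (SE 0.107) and fell without Gln (-1.23, SE 0.143). DON minus Gln-free cells passed the test for these 4 genes. It was -1.27 for Phlpp1 (SE 0.0845, limma adjusted p = 6.16e-09) and 1.23 for Pik3r2 (SE 0.109, limma adjusted p = 1.24e-07). For Pik3r3 it was -1.53 (SE 0.256, limma adjusted p = 8.94e-05) and for Foxo4 1.62 (SE 0.129, limma adjusted p = 3.86e-08). In that comparison 63.3% of 13514 genes were called. The 4 genes were named by their differences in the same libraries, so nothing is read from their count. Eif4ebp1, the translation repressor acted on by mTORC1, rose from 4640.4 ± 638 to 10532 ± 472 after DON (1.19, SE 0.104) and by 0.46 without Gln (SE 0.0984). The RNA-binding protein gene Igf2bp3 fell in both (-1.14 and -0.64).

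**Figure D5:**
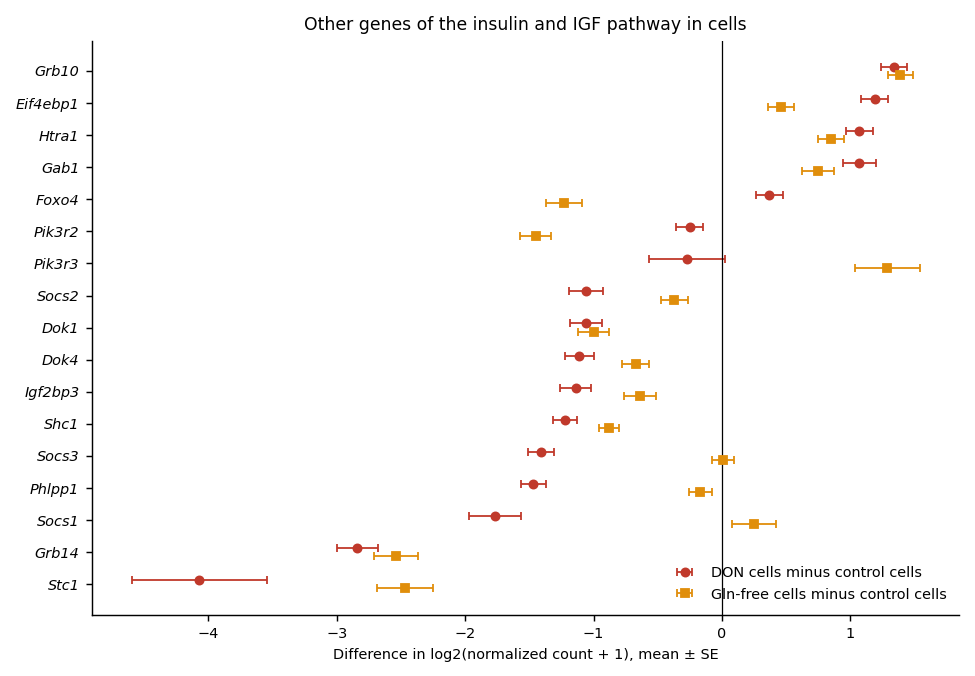
Difference between treated and control cells on the log2(normalized count + 1) scale, with bars of 1 SE (n = 3 per group), for the 17 other pathway genes that were called in a culture comparison with a mean of at least 100 and a difference of at least 1. Grb10, Eif4ebp1, Htra1 and Gab1 lie above 0 in both comparisons, and Stc1 and Grb14 lie farthest below.

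In tumors none of 50 tested pathway genes was called by limma, edgeR or DESeq2 on the tumor counts, and none of 49 by limma on the FPKM columns. At an unadjusted p under 0.05 there were 5 genes in the counts (Akt1, Igf1, Pappa, Pik3r3 and Stc2) and 6 in the FPKM columns (Htra1, Ins1, Ins2, Sh2b2, Socs1 and Stc2), named here after their values were seen. All genes together gave 5.01% and 7.61% at that threshold. Htra1, Sh2b2 and Socs1 were highest in the first DRP-104 FPKM column, and the counts of Stc2 in the third DRP-104 tumor. Differences of pathway genes without that column or that tumor are not given. Stc2 was the only gene in both lists, higher with DRP-104 at 351, 397 and 771 normalized counts against 322, 221 and 114 (1.24, SE 0.429, limma adjusted p = 0.916) and at 4.43, 4.6 and 5.08 FPKM against 3.87, 3.28 and 3.08 (0.37, SE 0.138, limma adjusted p = 0.629).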

How the data were processed

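RNA-seq of 15 libraries in 5 groups of 3 was used. Part of the line's genotype is not reported here. According to the study's methods, libraries, HISAT2 alignment and DESeq2 were run by Novogene for the authors; the submitters' processing notes also name STAR 2.5 and GRCm39, whereas gene coordinates in the FPKM table are those of GRCm38, which is used here. The counting tool is not given in the sources used here. In the 3 tables of comparisons the deposited values are a signal: read counts of genes, each divided by the DESeq2 size factor of its library in that table. The authors' FPKM values are per gene length and library size. Dividing by the worth of 1 read returned whole reads (tolerance 0.0051) for at least 99.8581% of values above 0. Control columns of the culture tables carry vehicle names and were taken as CNT from the table's name.

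Differences were fitted with limma 3.58.1 (trend) in R 4.3.3 on log2(value + 1), for genes averaging 10 or more (FPKM 0.5), with Benjamini-Hochberg adjustment over all genes and calls under 0.05, using the 6 libraries of each comparison. DON and Gln-free cells shared a fit of 9 libraries. Tumors and cells were scaled jointly from recovered reads by median-of-ratios size factors, with differences and SEs as description. Low read ratios have exact 95% counting intervals that treat each read as independent. Alternatives used edgeR 4.0.16 and DESeq2 1.42.0 on recovered reads, TMM scaling, other filters and pseudocounts (8, or 0.1 for FPKM), a replicate block and each library left out. The fits were tested on simulated data. Named were all 10 genes, pathway genes called in cells with a mean of at least 100 and a log2 difference of at least 1, the ligands, Insr, Igfbp1 and the 5 genes most like the member with the largest summed difference. The 10 genes and the lists of pathway genes and markers were chosen with earlier results of these data known. P-values measure the spread between libraries only.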

Additional observations from a re-analysis of the deposited data

Results flagged for a closer look

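Igf1r differed from control cells in opposite directions, -0.39 on the log2 scale after DON and 0.32 without Gln, with every DON library below and every Gln-free library above all controls. Irs1 did the same, with -0.76 and 0.43. Both comparisons use the same 3 control libraries. DON minus Gln-free cells was -0.68 for Igf1r (SE 0.0988) and -1.15 for Irs1 (SE 0.114) on the common scale. The genes were chosen with these values known, so no p is given for the difference between the treatments.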

How the results depend on the processing

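Counts of called genes among the 10 genes and among the pathway genes stayed within 1.5 times their value under the alternatives run. This does not hold for counts of genes that did not overlap. In the tumor counts only Igfbp4 did not overlap, and without the third DRP-104 tumor Igf1r did not overlap either. Of the differences of single genes under alternatives, 726 kept their direction and their side of the threshold, 21 turned in sign, 4 moved by more than the spread and 2 crossed the threshold. Over all genes the number called in the tumor counts went from 0 to 56 with DESeq2, and in the FPKM columns from 0 to 1 without the first DRP-104 or the first vehicle column. Replicate numbers did not pair libraries, as same-numbered deviations correlated from -0.365 to 0.0715. With a replicate block the genes called went from 9226 to 9216 after DON and from 9292 to 9056 without Gln, and stayed at 0 in both tumor comparisons. All turns in sign came from leaving out 1 library. In the tumor counts the values then ran from -0.02 to 0.30 for Igf2r, -0.13 to 0.29 for Irs2, -0.86 to 0.93 for Igfbp2, -1.31 to 0.05 for Igfbp3 and -0.43 to 0.54 for Igfbp5. In the FPKM columns they ran from -0.13 to 0.03 for Igf2r, -0.05 to 0.28 for Irs2, -0.34 to 0.03 for Igfbp5 and -0.07 to 0.57 for Igfbp6. For the tumor effect minus the DON effect they ran from -0.00 to 0.54 for Irs1 and from -1.45 to 0.35 for Igfbp2, and Igfbp3 moved to -2.06. With a pseudocount of 8 the difference between DON and Gln-free cells for Igfbp5 became -0.88, its tumor effect minus DON effect 4.94, and the difference between vehicle tumors and control cells for Igfbp2 2.42; each has a group near 0 reads. The cause of the other changes was not tested. Reads in single digits limit Igfbp2, Igfbp5 and Igfbp6 in cells, and 3 libraries a group limit the tumor comparisons.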
